A study of Arabidopsis thaliana with 9 samples.

Results

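A total of 238 genes were close to silent in the roots of mock-treated STZ-OE seedlings and expressed after 24 h of estradiol. They were chosen by the values themselves, as genes with at most 8 exon reads summed over the 3 mock libraries and a mean of at least 1 TPM over the 3 libraries of 24 h, out of 32833 listed genes. TPM, a transcript's share of all transcripts, is a level corrected for exon length and library size. Of 253 genes that met both limits, 15 whose names belong to large families such as the cytochromes P450 (CYP), WRKY, ERF and MYB factors were left out. Because mock and 24 h values chose the members, the step between these groups is given as a description, and the rule did not use the 6 h libraries, the annotation, the position or the upstream sequence.

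The data were mRNA libraries from Arabidopsis thaliana roots of STZ-OE #2, T3 generation, 1 transgenic line p35S::XVE>>pLexA::STZ in Col-0. In it estradiol activates the XVE factor, expressed from p35S, and XVE in turn switches on STZ. Seedlings of 4 to 5 days received ethanol (mock) or 20 µM estradiol for 6 or 24 h, with 3 libraries per group, and every group carries the transgenes. STZ (SALT TOLERANCE ZINC FINGER, AT1G27730) is a C2H2 zinc finger transcription factor best known as a stress-induced repressor. No line with estradiol but without STZ induction was analysed here, so the effects of STZ, XVE and estradiol cannot be told apart, and the 6 h group is compared with a mock of another duration. Biological replicates are named as such in the labels, which do not say whether they came from separate cultures, so that p-values measure the spread between these libraries, which may in part be technical. Sources differ on the root portion, named as the apical 2/3 in the series text and as a bottom portion in the study's methods.

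The libraries held 24375822 to 31299634 counted exon reads, of which 98.5 to 98.6% were placed at 1 position. STZ, which checks the labels, stood at 24.4 ± 5.44 CPM (reads scaled to library size) in mock, 1187 ± 172 at 6 h and 10980 ± 1160 at 24 h (SD, n = 3 each), with no overlap between groups. These counts do not separate the transgene from the native copy. All 7 root marker genes that were checked (such as CASP1 of the endodermis and EXPA7 of root hairs) reached 1 TPM in each group. Their summed level was 639 to 685 TPM in mock, 621 to 916 at 6 h and 549 to 737 at 24 h. CASP1 made up most of it, with means of 446, 475 and 386 TPM in mock, 6 h and 24 h. Single markers differed, with SCR at 33.2, 37.5 and 69.2 TPM and SMB at 5.53, 5.38 and 3.49 TPM. The 5 shoot photosynthesis genes summed to 202 to 214 TPM in mock, 48.8 to 53.6 TPM at 6 h and 42.1 to 44.7 TPM at 24 h. The 8 genes of developmental cell death and xylem summed to 546 to 594, 759 to 834 and 693 to 941 TPM. XCP1, XCP2 and SCPL48 made up most of this sum. CEP1 and BFN1 were lower at 6 h than in mock, at 0.792 against 3.30 TPM and 15.5 against 19.7 TPM, while the others were higher. PASPA3 was also on the list and was kept out of the sum because the annotation does not give it that name. It stood at 17.1 TPM in mock, 13.7 TPM at 6 h and 7.28 TPM at 24 h. In bulk root tissue, more cells of a type and more RNA per cell cannot be told apart.

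Genes that are silent in an organ are often those with a role elsewhere in the plant. Arabidopsis carries large families of small secreted cysteine-rich peptides, receptor-like kinases and wall enzymes that work in pollen, pistil and embryo sac, where they guide and receive the pollen tube. Other genes silent in unstressed roots answer wounding, pathogens or organ shedding, such as IDA, the peptide that triggers abscission. Both kinds were among the members, together with many proteins of unknown function.

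The upstream sequences of the 3 highest members at 24 h are shown, together with those of a neighbouring pair of chitinase-type genes whose upstream regions were alike next to the start. Each is the stretch of 200 bases that ends just before the annotated gene start, read from TAIR10.1 and written 5′ to 3′ on the gene's strand. None overlapped another annotated gene. Capitals mark TATAAA, the letters of a TATA box, and TTGAC, the core of the W box bound by WRKY factors, or their reverse complements TTTATA and GTCAA.
AT1G56710, chr1:21259975-21260174, minus strand: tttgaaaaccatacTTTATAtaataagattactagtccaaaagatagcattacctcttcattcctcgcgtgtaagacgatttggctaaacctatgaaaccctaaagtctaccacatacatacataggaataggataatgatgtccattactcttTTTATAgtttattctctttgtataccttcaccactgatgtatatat
AT1G71470, chr1:26930506-26930705, plus strand: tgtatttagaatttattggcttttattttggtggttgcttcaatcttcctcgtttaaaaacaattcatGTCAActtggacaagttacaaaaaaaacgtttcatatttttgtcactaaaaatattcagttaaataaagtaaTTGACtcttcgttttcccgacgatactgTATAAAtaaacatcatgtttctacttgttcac
AT4G12490, chr4:7410407-7410606, minus strand: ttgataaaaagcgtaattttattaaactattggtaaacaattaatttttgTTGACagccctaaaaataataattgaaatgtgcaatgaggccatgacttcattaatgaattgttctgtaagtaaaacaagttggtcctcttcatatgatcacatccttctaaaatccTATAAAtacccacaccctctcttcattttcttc
AT4G19760, chr4:10750181-10750380, plus strand: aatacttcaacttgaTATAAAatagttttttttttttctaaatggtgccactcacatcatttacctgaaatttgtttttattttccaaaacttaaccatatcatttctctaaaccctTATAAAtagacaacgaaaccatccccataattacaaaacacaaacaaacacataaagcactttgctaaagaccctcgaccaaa
AT4G19750, chr4:10747128-10747327, minus strand: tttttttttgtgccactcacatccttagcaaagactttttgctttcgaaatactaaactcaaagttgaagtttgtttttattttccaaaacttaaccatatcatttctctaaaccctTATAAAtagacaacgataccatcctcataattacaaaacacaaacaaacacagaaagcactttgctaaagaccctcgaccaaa

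In AT1G71470 and AT4G12490 the TATAAA letters began at positions -32 and -33 from the annotated start, and both windows also held TTGAC. In AT1G56710 these letters were found on the other strand alone. AT4G19750 and AT4G19760 lie back to back, 3253 bases apart. Over the whole windows 148 of 200 bases were identical, and next to the starts 127 of the last 130, with a TATAAA at position -83 in both and a longest identical run of 63 bases.

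The members spanned a wide range of levels at 24 h. Their mean TPM ran from 1.00 to 668.2 with a median of 2.23, 34 members reached 10 TPM, and 110 stayed under 2 TPM. The 3 highest members carried 50.2% of the summed level and the 10 highest carried 67.2%. Summed over all 238 members, the level was 11.9 ± 0.233 TPM in mock, 144.9 ± 15.8 TPM at 6 h and 2877 ± 678 TPM at 24 h (SD, n = 3 each).

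Mock counts were sparse, as the rule required. In all, 103 members had no mock read, 79 had 1 to 3 reads and 56 had 4 to 8 reads over the 3 libraries. Where mock had no read, the fold is a lower bound set against a floor of 3 reads over the group. The folds and bounds of 24 h over mock had a median of 42.2, with 218 members at 10-fold or more and 63 at 100-fold or more. In 234 members every 24 h library lay above every mock library, a separation that both limits of the rule favour. No share over all genes stands beside this count, so nothing is read from it. These values follow from the selection and were not tested, and intervals of single folds cover counting error alone, since reads carried no molecular identifiers.

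**Figure D1:**
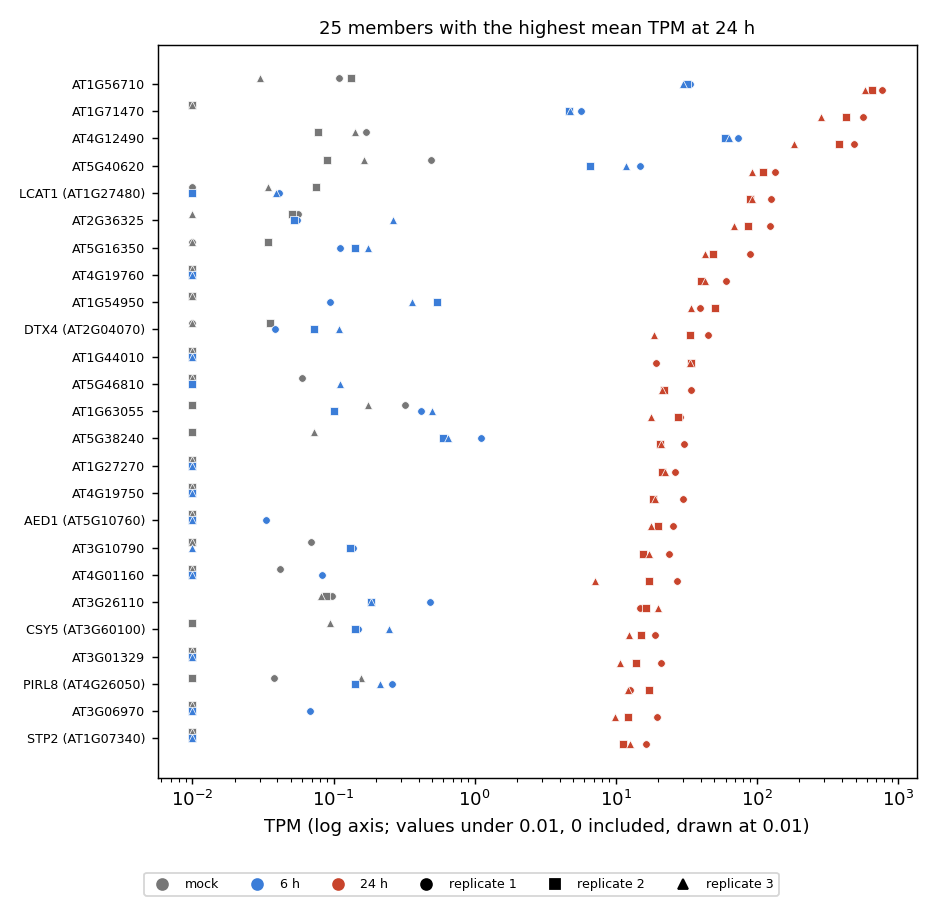
TPM (log axis) of the 25 members with the highest mean TPM at 24 h, in the 9 libraries; colour gives the group, the marker shape gives the replicate, and values under 0.01, including 0, are drawn at 0.01. The 24 h libraries of AT1G56710 lie between 586.0 and 769.5 TPM, and for AT4G19760 all mock and 6 h libraries sit at 0.

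The highest member encodes a wall enzyme. AT1G56710 (chr1:21257728-21259974, minus strand) is annotated as a pectin lyase-like protein, a fold found in polygalacturonases that cut pectin. It had 3, 4 and 1 reads in mock, 929, 927 and 882 reads at 6 h and 24028, 17005 and 15861 reads at 24 h. The groups were far apart, and the level was 31.7 ± 1.64 TPM at 6 h and 668.2 ± 93.3 TPM at 24 h (SD, n = 3). The 6 h counts were 358.8-fold over mock (95% exact interval 181.8 to 831.9). AT1G56710 overlaps AT1G56700, which stood at 123 TPM at 24 h. The library kit marks strand, but how strand was used when reads were counted is not stated, so reads from overlapping genes cannot be told apart.

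AT4G19760 and AT4G19750 are annotated as glycosyl hydrolases with a chitinase insertion domain, the type of enzyme that cleaves chitin or related polymers. Neither had a single read in the 6 libraries of mock and 6 h. At 24 h AT4G19760 had 1137, 641 and 696 reads, or 47.7 ± 10.9 TPM, and AT4G19750 had 557, 284 and 303 reads, or 22.4 ± 6.64 TPM (SD, n = 3). The counts were at least 857.3-fold and 396.4-fold higher than at 6 h. Both were highest in replicate 1, and at least 99.8% of their reads were placed uniquely despite their like upstream regions. Of 5 mock-silent genes with this annotation, these 2 were members.

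Other wall and carbohydrate genes were lower. AT3G14040, a further pectin lyase-like gene, reached 4.95 TPM, PME50, from the pectin methylesterases that demethylate pectin, reached 3.51 TPM, and BG4, a beta-1,3-glucanase of the kind that digests callose, reached 2.49 TPM. Of the 17 genes in this class, 15 had at most 8 reads over the 3 libraries of 6 h.

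Lipid enzymes held 3 of the 7 highest members. LCAT1 (AT1G27480), named for lecithin-cholesterol acyltransferase, had 0, 2 and 1 reads in mock, 1, 0 and 1 reads at 6 h and 3441, 2056 and 2206 reads at 24 h. It was thus as silent at 6 h as in mock and reached 102 ± 19.9 TPM at 24 h. AT2G36325, a GDSL-type lipase, had 1, 1 and 0 reads in mock, 1, 1 and 5 at 6 h and 2500, 1469 and 1217 at 24 h, a level of 93.0 ± 27.6 TPM. AT5G16350 is annotated as an acyltransferase of the WSD1 type, which makes wax esters, and had 0, 1 and 0 reads in mock, 3, 4 and 5 at 6 h and 2711, 1244 and 1114 at 24 h, with a level of 60.4 ± 25.6 TPM. It overlaps AT5G16360, a gene at 126 TPM at 24 h. WIN1 (AT1G15360, listed as WIN1_1), a factor known to induce wax synthesis, stayed low with 30, 19 and 14 reads at 24 h and none before.

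Secreted peptides and small cysteine-rich proteins were 38 members with a median of 3.16 TPM at 24 h. The highest, AT4G12490, belongs to the lipid-transfer protein and 2S albumin superfamily. It had 2, 1 and 2 reads in mock, 877, 748 and 802 at 6 h and 6486, 4308 and 2129 at 24 h. The replicates of 24 h were uneven, with levels of 485.0, 383.9 and 183.6 TPM, but all lay above the 59.8 to 73.5 TPM of 6 h. At 24 h 66.6% of its reads were placed uniquely, so a part may belong to close relatives and its level is uncertain.

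Words for reproductive or cysteine-rich peptide families occurred in the annotated product of 27 members, or 11.3%. The share was 5.87% (391 of 6661) among the other mock-silent genes and 0.255% (53 of 20756) among genes with more than 8 mock reads. Here and below, the other mock-silent genes are 6646 genes under 1 TPM at 24 h and the 15 left out by name. These shares are descriptions without a test. The 27 members included 5 of 77 mock-silent genes for low-molecular-weight cysteine-rich (LCR) peptides, 5 of 93 defensin-like genes and 6 of 81 genes related to ECA1 gametogenesis proteins. Members made up 3.45% of all mock-silent genes, so that the LCR share of 6.49% and the ECA1 share of 7.41% rest on few genes.

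LCR44 (AT3G06985) had 73, 50 and 39 reads at 24 h, 1 read in mock and none at 6 h, with 10.8 ± 2.56 TPM at 24 h. LCR33 (AT3G43083) had 114, 48 and 35 reads at 24 h and none in the other 6 libraries. KRS (AT1G50650), of the stigma-specific Stig1 family, had 73, 58 and 54 reads at 24 h and none before. AT3G26110, similar to an anther-specific protein, had 1, 1 and 1 reads in mock, 5, 2 and 2 at 6 h and 171, 159 and 201 at 24 h, and was highest in replicate 3.

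A second Stig1-type gene, AT1G11925, behaved differently. It had 0, 1 and 0 reads in mock, 31, 27 and 27 at 6 h and 69, 48 and 15 at 24 h. Its level was 2.25 ± 0.251 TPM at 6 h and 3.50 ± 1.98 TPM at 24 h, and the change from 6 h to 24 h did not pass the test (log2 change 0.73, SE 0.41, adjusted p = 0.15, edgeR). These were the only 2 mock-silent Stig1 genes, and both were members.

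IDA (AT1G68765) had 1, 0 and 0 reads in mock, 11, 19 and 23 at 6 h and 146, 93 and 98 at 24 h. Its 3 groups did not overlap, and its level was 1.29 ± 0.42 TPM at 6 h and 8.38 ± 1.34 TPM at 24 h. RALFL19 (AT2G33775), a RALF-type peptide known from pollen tubes, was near the lower limit with 11, 15 and 20 reads at 24 h, 1, 5 and 4 at 6 h and none in mock.

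The levels of pollen, seed and floral marker genes were measured beside these peptides. Of 8 pollen markers, 6 had no read in mock and in 6 h, 3 had none at 24 h, and their summed level was 3.22 to 3.72 TPM in mock, 2.62 to 2.82 TPM at 6 h and 3.40 to 4.29 TPM at 24 h. ANX1, which was expressed in mock roots, made up most of this sum with 3.41, 2.65 and 2.96 TPM in mock, 6 h and 24 h. Other pollen markers were higher at 24 h than in mock but under 1 TPM, with SKS13 at 0.010 and 0.495 TPM, VGDH1 at 0 and 0.196 TPM and VGD1 at 0 and 0.096 TPM, none tested here. RALFL19 was on that list as RALF19 and was kept out of the sum because the annotation does not give it that name. It stood at 0 TPM in mock, 0.212 TPM at 6 h and 1.03 TPM at 24 h, so the sum with it would be higher at 24 h. The 9 seed markers summed to 0.639 to 1.20 TPM in mock, 1.31 to 1.40 TPM at 6 h and 0.345 to 0.791 TPM at 24 h. The 8 floral markers summed to 3.52 to 3.86 TPM in mock, 3.04 to 3.42 TPM at 6 h and 13.2 to 18.8 TPM at 24 h. Of these 1, PI, which specifies petals and stamens, reached 1 TPM at 24 h, at 13.6 TPM against 1.32 TPM in mock, while AP1 and A9 had no read there. No marker of any list was a member apart from RALFL19, and the part of such cells in the members' levels was not tested.

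**Figure D2:**
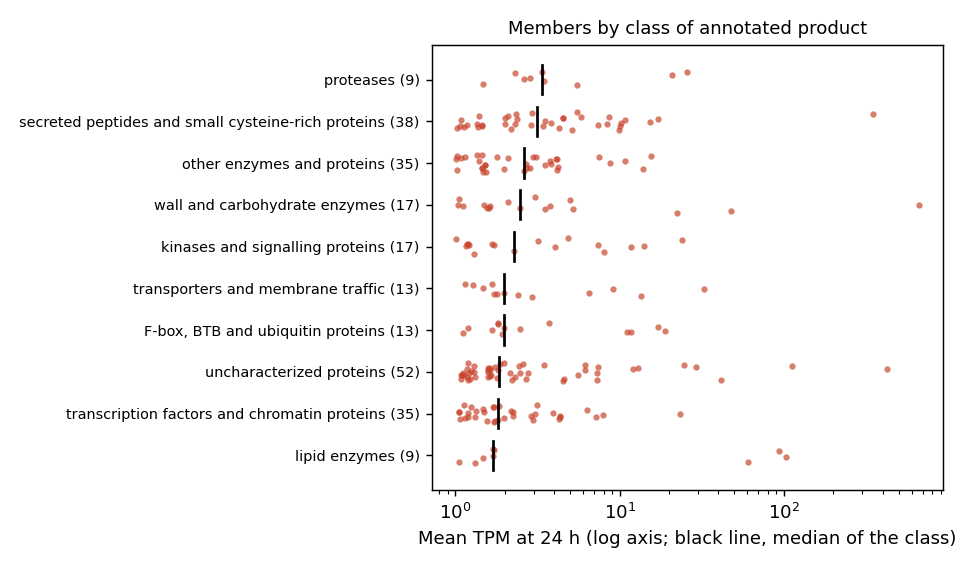
Mean TPM at 24 h (log axis) of the 238 members by class of annotated product, 1 point per member, with the class median as a black line and the number of members in parentheses. The medians lie between 1.70 TPM for the lipid enzymes and 3.35 TPM for the proteases, and the 3 points past 300 TPM belong to different classes.

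Among the 9 proteases, AED1 (AT5G10760) is an aspartyl protease secreted to the apoplast and linked to systemic immunity. It had 847, 556 and 516 reads at 24 h, a level of 21.0 ± 3.89 TPM, against 1 read at 6 h and none in mock. CDR1 (AT5G33340), an aspartyl protease known for disease resistance, had 1, 1 and 1 reads in mock, none at 6 h and 77, 58 and 56 at 24 h. The gene for dVPE (AT3G20210), a vacuolar processing enzyme that acts in cell death of the seed coat, had 196, 127 and 123 reads at 24 h and none before. SBT4.5 (AT3G46840), a subtilisin-like protease, had 127, 97 and 131 reads at 24 h and none before. AT5G46810, annotated with a carboxyl-terminal proteinase domain, was the highest of the class at 25.8 ± 7.21 TPM.

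Among members of other classes with a known part in defence, BSMT1 (AT3G11480), the methyltransferase that makes methyl salicylate, had 40, 27 and 36 reads at 24 h, 1 in mock and none at 6 h, but it overlaps AT3G11490 at 38.4 TPM. FOX3 (AT1G26400), a berberine bridge enzyme, had 130, 83 and 47 reads at 24 h and none before.

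Signalling proteins were 17 members. The highest, the protein kinase AT5G38240, had 0, 0 and 3 reads in mock, 39, 22 and 24 at 6 h and 1188, 675 and 708 at 24 h. PIRL8 (AT4G26050), a leucine-rich repeat protein, reached 14.0 ± 2.70 TPM at 24 h. The kinase gene AT3G02810 (listed as LIP2_2) had 525, 349 and 385 reads at 24 h against 2 in mock and 1 at 6 h, and its relative AT5G16500 (LIP1_3) had 233, 158 and 156 reads against 1, 1 and 1 in mock. The products of these 2 genes are known from pollen tubes, where they take part in guidance.

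Transcription factors and chromatin proteins were 35 members with a median of 1.82 TPM. The NAC factor anac067 (AT4G01520) had 169, 104 and 34 reads at 24 h and none in mock or at 6 h. YAB1 (AT2G45190), which sets the abaxial side of leaves and floral organs, had 93, 64 and 15 reads, and WOX3 (AT2G28610), a homeodomain factor of lateral organ margins, had 115, 38 and 15 reads after 1 in mock. AT2G40435, similar to the bHLH factor SCREAM, had 139, 49 and 19 reads. All 4 had no read at 6 h, and replicate 1 exceeded replicate 3 by 4.31-fold for anac067, 5.37-fold for YAB1, 6.34-fold for AT2G40435 and 6.65-fold for WOX3 in TPM. WOX7 (AT5G05770), which acts in lateral root formation, was already seen at 6 h with 10, 4 and 2 reads and had 19, 9 and 7 at 24 h, groups that overlapped.

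Transporters and membrane traffic proteins were 13 members, of which 12 had at most 8 reads at 6 h. DTX4 (AT2G04070), a MATE-type efflux carrier, had 0, 1 and 0 reads in mock, 1, 2 and 3 at 6 h and 1318, 825 and 475 at 24 h. STP2 (AT1G07340), a hexose carrier known from pollen development, had 471, 272 and 311 reads at 24 h and none in the 6 other libraries. ATG18E (AT5G05150), of the autophagy ATG18 family, had 224, 163 and 145 reads at 24 h, 0, 3 and 4 at 6 h and none in mock. SULTR1;3 (AT1G22150), the sulfate transporter that loads phloem, had 145, 58 and 83 reads against 1, 4 and 0 in mock.

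Proteins of unknown function formed the largest class with 52 members. AT1G71470 (chr1:26930706-26931568, plus strand) had no mock read, 54, 47 and 48 reads at 6 h and 6080, 3850 and 2633 at 24 h, which is at least 4564-fold higher than mock. Its level was 5.03 ± 0.532 TPM at 6 h and 425.5 ± 142 TPM at 24 h. AT5G40620 had 5, 1 and 2 reads in mock, 153, 71 and 127 at 6 h and 1555, 1067 and 923 at 24 h. AT1G44010 had 255, 378 and 388 reads at 24 h and none before, and was lowest in replicate 1. AT1G54950 had 1, 6 and 4 reads at 6 h and 468, 502 and 349 at 24 h after none in mock, and AT1G63055, with 87.4% of its reads placed uniquely, reached 24.6 ± 5.90 TPM.

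F-box, BTB and ubiquitin proteins, which mark other proteins for breakdown, were 13 members with a median of 1.96 TPM at 24 h. AT3G10790, an F-box associated protein, had 386, 215 and 244 reads at 24 h against 1 in mock and 4 at 6 h. AT4G01160, of the BTB/POZ type, had 741, 391 and 169 reads against 1 in mock and 2 at 6 h. F-box genes are a large mock-silent family, and 5 of its 456 mock-silent genes were members. Among other proteins, AT3G06970, an RNA-binding protein, had 324, 169 and 141 reads at 24 h against 1 at 6 h and none in mock, and the SAUR-type gene AT4G34790 reached 10.8 ± 2.58 TPM.

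At 6 h most members were still silent. There were 89 members with no read, 100 with 1 to 8 reads and 49 with more, and 70 members had no read in any of the 6 mock and 6 h libraries. The median member had reached 1.22% of its 24 h level. Among the other mock-silent genes, 3.96% had more than 8 reads at 6 h, against 20.6% of the members. The mock limit was common to both, while the 24 h values chose the members, so the 2 shares are a description without a test.

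A mean of at least 1 TPM at 6 h was reached by 7 members, compared with 25 of the 6661 other mock-silent genes. The 7 were AT4G12490 at 65.7 TPM, AT1G56710 at 31.7 TPM, AT5G40620 at 11.1 TPM, AT1G71470 at 5.03 TPM, AT1G11925 at 2.25 TPM, AT5G43064 at 1.85 TPM and IDA at 1.29 TPM. The 4 highest at 6 h were also the 4 highest at 24 h. AT5G43064, an uncharacterized short gene, was the 1 member with a higher mean at 6 h than at 24 h, with 7, 8 and 4 reads at 6 h and 6, 6 and 0 at 24 h.

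**Figure D3:**
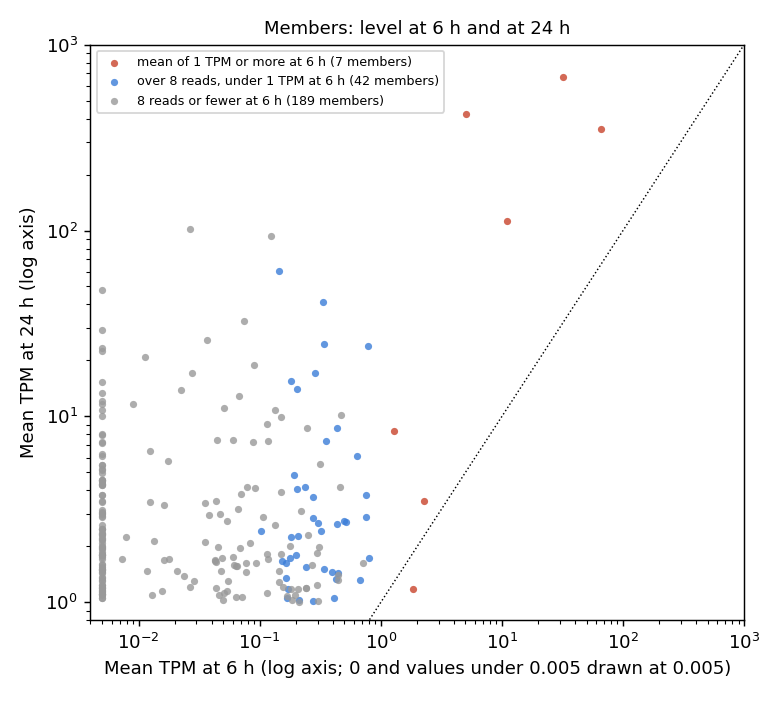
Mean TPM at 6 h against mean TPM at 24 h (both log axes) for the 238 members, 1 point each, with values under 0.005 at 6 h drawn at 0.005 and equal levels on the dotted line. The 189 members with at most 8 reads at 6 h fill the left side, and 1 point, AT5G43064, lies below the line.

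The 6 h libraries were tested against mock with edgeR over all 20272 genes that passed the filter on low counts. A gene was called at an adjusted p under 0.01 and a change of at least 1.5-fold. Of the 238 members, 188 passed the filter, which they could do through the 24 h libraries alone. Of these, 13 were called higher at 6 h, where 5.43% of all tested genes were called higher, and nothing is read from the difference between these shares. The mock reads in this comparison also chose the members, which favoured higher calls and left no room for lower ones, and the 188 entered the test largely through their 24 h counts. With the 2 groups filtered alone, 10 members passed the filter, and all 10 were called higher. AT1G63057, AT5G16500 and AT5G37840, named below, did not pass it, so their calls depend on the 24 h libraries that chose the members.

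The 13 were the wall enzyme AT1G56710 (log2 change 8.45, SE 0.24, adjusted p = 2.21e-09), AT4G12490 (8.91, SE 0.64, adjusted p = 1.62e-06), AT5G40620 (5.49, SE 0.51, adjusted p = 1.12e-05), AT3G28600, AT1G71470, IDA, AT1G11925, the phospholipase gene AT4G16820, the kinases AT5G38240 and AT5G16500, AT1G63057, AT5G53680 and AT5G37840. IDA changed by 5.35 (SE 0.70, adjusted p = 0.000128) and AT5G38240 by 4.75 (SE 0.72, adjusted p = 0.000358) on the log2 scale. AT5G37840, with 0, 0 and 1 reads in mock and 4, 7 and 6 at 6 h, was the weakest call (adjusted p = 0.00824) and lost it when any single mock or 6 h library or replicate 1 of 24 h was left out, with adjusted p from 0.0106 to 0.0322. AT1G63057, which overlaps the member AT1G63055, lost its call without mock replicate 1, mock replicate 3 or 6 h replicate 3 (adjusted p 0.0145 to 0.0178). AT5G53680 lost it without mock replicate 1, mock replicate 3 or 6 h replicate 1 (0.0122 to 0.0159), and AT5G16500 without mock replicate 3 (0.0106).

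The comparison of 24 h with 6 h shares its 24 h libraries with the rule, which favours higher values at 24 h, so its counts describe the selected genes and support nothing further. In it 185 of the 188 tested members were called higher, where 14.1% of all tested genes were, and none was called lower by edgeR, where 10.5% of all tested genes were. The count of lower members was also 0 at an adjusted p under 0.05 without a fold limit and with DESeq2, as the rule favours. The 5 largest changes included LCAT1 with 2 reads at 6 h (log2 change 11.75, a description), and the other 4, AT4G19760, AT4G19750, STP2 and AT1G44010, had no read at 6 h, so that their fitted values are no bounds. The 3 not called were AT1G11925, WOX7 (log2 change 1.20, SE 0.57, adjusted p = 0.0932) and ATMYB102 (log2 change 1.42, SE 0.42, adjusted p = 0.0123), a MYB factor whose prefixed name the exclusion did not match.

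Members often lay next to each other. In the order of annotated genes, 51 members fell in 22 runs of adjacent members, 19 of them pairs, and 12 of the runs were on 1 strand. By comparison, 1.33% of the other mock-silent genes and 1.57% of genes over 8 mock reads had a member as a neighbour, against 21.4% of the members.

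The longest run held 5 genes with a paired amphipathic helix domain, the protein interaction domain of Sin3-type corepressors, from AT1G27240 to AT1G27280 on chromosome 1. None had a read in the mock or 6 h libraries. At 24 h the reads were 15, 13 and 16 for AT1G27240, 43, 21 and 20 for AT1G27250, 63, 33 and 40 for AT1G27260, 324, 219 and 239 for AT1G27270 and 98, 70 and 81 for AT1G27280. The levels differed between neighbours, with AT1G27270 at 23.2 ± 2.67 TPM and AT1G27280 at 7.94 ± 0.646 TPM. With AT5G15030 on chromosome 5, which had 64, 47 and 60 reads at 24 h and none before, 6 of the 19 mock-silent genes of this family were members.

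This run and the pair LCAT1 and AT1G27490 lie on the same side of STZ on chromosome 1, between 101 and 181 kb from it. They were the 7 members among 30 mock-silent and 103 listed genes within 200 kb of STZ. Over chromosome 1, 58 of 7156 genes (0.811%) were members, and members were 3.45% of all mock-silent genes. The run is a row of neighbours of 1 family, so the 7 are not separate cases, and an effect of position was not tested. AT1G27490, an F-box gene 87 bases from LCAT1 on the other strand, had 8, 9 and 10 reads at 24 h.

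A run of 4 genes from AT4G32090 to AT4G32110, annotated as beta-1,3-N-acetylglucosaminyltransferases, was silent at mock and 6 h. At 24 h AT4G32090 had 34, 24 and 32 reads, AT4G32100 27, 14 and 24, AT4G32105 16, 5 and 12, and AT4G32110 17, 12 and 11. All 4 mock-silent genes with this annotation were members. A run of 4 DUF674 genes from AT5G01120 to AT5G01150 ranged from 1.09 to 3.45 TPM at 24 h, and 4 of the 10 mock-silent genes with this domain were members.

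A cluster at the top of chromosome 3 between AT3G01324 and AT3G01331 held 6 members in 3 pairs, of which 5 are annotated as ECA1-type and AT3G01325 as uncharacterized. The highest, AT3G01329, had 118, 66 and 52 reads at 24 h and none before. AT3G01327 had 3, 3 and 0 reads in mock, none at 6 h and 52, 8 and 15 at 24 h, and was thus uneven between replicates. AT3G01323 and AT3G01328 within the cluster were mock-silent at 0.57 and 0.31 TPM at 24 h and were not members.

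**Figure D4:**
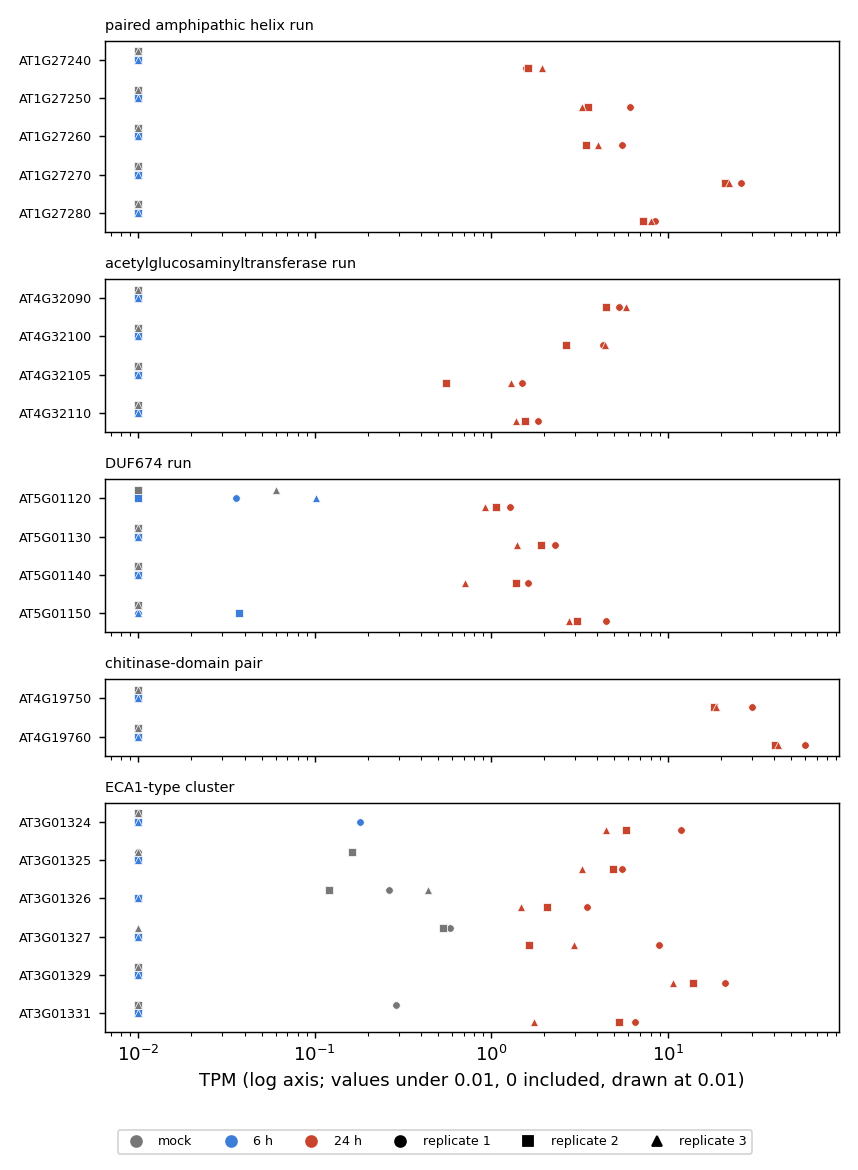
TPM (log axis) in the 9 libraries for the members of 5 clusters, with colours for groups, marker shapes for replicates, and values under 0.01, including 0, drawn at 0.01. All libraries of 24 h lie to the right of those of mock and 6 h in each row, and the chitinase-type pair is the highest cluster at 18.3 to 60.2 TPM.

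Reads that run on from an upstream gene can be counted in a silent neighbour. A gene on the same strand ended within 1 kb upstream of 83 members, or 34.9%, compared with 24.9% of the other mock-silent genes and 30.7% of genes over 8 mock reads. In 3 of the 83, AT1G27280, AT1G63057 and CSY5, that gene stood at 10 TPM or more and at least 4-fold over its mock level at 24 h, as it did in 12 of 1625 other mock-silent genes and 79 of 6339 genes over 8 mock reads. CSY5 (AT3G60100), a citrate synthase, had 0, 0 and 3 reads in mock, 4, 4 and 7 at 6 h and 575, 383 and 326 at 24 h, and AT3G60090, which ends 981 bases before it, stood at 0.446 TPM in mock and 78.9 TPM at 24 h. The upstream neighbour of AT1G27280 was the member AT1G27270. An overlap with another listed gene was found for 35 members, or 14.7%, for 15.6% of the other mock-silent genes and for 28.0% of genes over 8 mock reads. In 28 of the 35 the other gene had the higher level at 24 h. The part of neighbouring or overlapping reads in the members' counts was not tested.

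Read placement was unique for most members. All reads at 24 h were unique for 218 members, 11 were under 90%, and AT1G55152, AT3G21305 and AT5G01895 had no unique read. AT5G01895 had reads in 1 library alone, with 0, 43 and 0 at 24 h, and AT3G21305 had 47, 49 and 0. These 3 are uncertain.

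In gene build the members lay close to other mock-silent genes. Their median exon length was 883.5 bases, against 856 for the other mock-silent genes and 1755 for genes over 8 mock reads, and the median number of exons was 2, 2 and 6. Organs of expression were spelled out in the annotation for 30 members. Of these, 13 (43.3%) named the male gametophyte, pollen or sperm, against 35.5% of 726 other mock-silent genes and 24.6% of 1451 genes over 8 mock reads. The root was named for 5 (16.7%), against 6.47% and 42.4%. These shares rest on few genes and were not tested.

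The 200 bases before the start were searched on both strands in 238 members, 6535 other mock-silent genes and all 27444 genes with such a window. TATAAA was found in 55.0% of the members, 43.2% of the other mock-silent genes and 41.0% of all genes. On the coding strand and within 20 to 50 bases of the start it was found in 14.7%, 8.95% and 7.91%. TTGAC was found in 44.5%, 36.9% and 38.7%, respectively, while CACGTG, the G box, was found in 1.68%, 3.69% and 5.64%. GCCGCC, the GCC box bound by ERF factors, was found in no member and in 1.46% of all genes.

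STZ is known to bind repeated A(G/C)T triplets. An AGT or ACT followed after 3 or 4 bases by another was found in 30.3% of the members, 30.5% of the other mock-silent genes and 30.3% of all genes. The letters CTGT and ACAG with 8 bases between them occur in the operator of the LexA part of XVE. They were found before 1 member (0.42%), 4 of the other mock-silent genes (0.0612%) and 22 of all genes (0.0802%). The windows overlap between close neighbours, motifs may overlap each other, and a match is not a binding site.

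The members were uneven between the replicates of 24 h. Their median coefficient of variation in TPM was 26.6%, against 10.4% for the 18950 genes at 1 TPM or more at 24 h. Replicate 1 was the highest library for 155 members (65.1%) and replicate 3 for 30 (12.6%), whereas over all these genes replicate 1 was highest in 29.8% and replicate 3 in 44.9%. Summed over members the level was 3573, 2840 and 2218 TPM in replicates 1, 2 and 3. STZ itself stood at 11610, 11680 and 9643 CPM in the same libraries. The part of low counts, depth or STZ level in this variation was not tested.

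**Figure D5:**
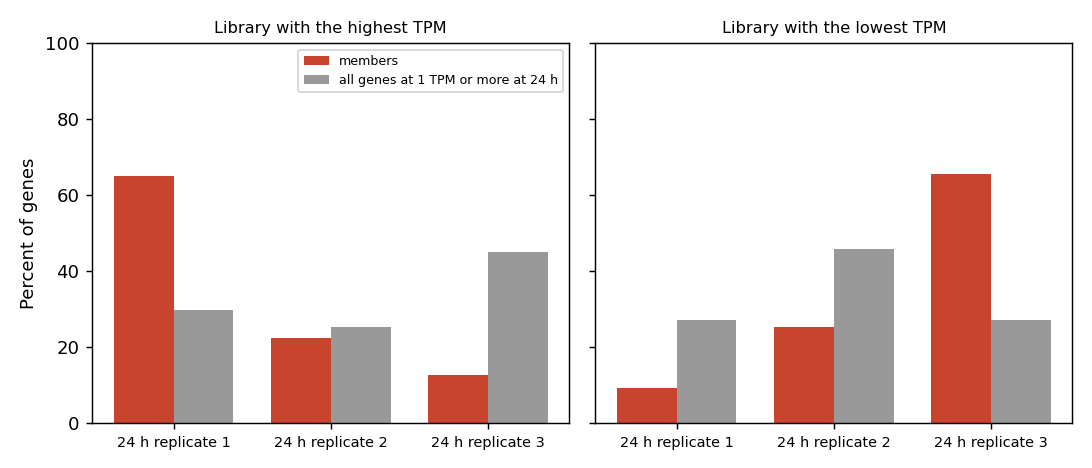
Percent of genes with their highest (left) or lowest (right) TPM in each of the 3 libraries of 24 h, for the members and for all 18950 genes at 1 TPM or more. Members were highest in replicate 1 in 65.1% and lowest in replicate 3 in 65.5%, whereas the bars of all genes lie between 25.2 and 45.8%.

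How even the libraries of 24 h were is described by leaving 1 of them out. The library left out was a replicate of the same group and the mock limit stayed the same, so high shares are favoured and nothing further is read from them. The rule was applied to the remaining libraries. Without replicate 1 it gave 222 genes, of which 203 (91.4%) reached 1 TPM in replicate 1. Without replicate 2 it gave 230 genes, of which 207 did so in replicate 2, and without replicate 3 it gave 252 genes, of which 186 (73.8%) did so in replicate 3. Of the mock-silent genes not chosen, 1.08%, 0.586% and 0.317% reached 1 TPM in the library left out. In all, 173 members were at 1 TPM or more in each of the 3 libraries.

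The limits of the rule cut through a continuous range. The 3 lowest members were AT5G55980 at 1.00 TPM, AT4G32950 at 1.01 TPM and RPS15F at 1.02 TPM, and the 3 genes just below were AT1G80540 at 0.998 TPM, PKS3 at 0.997 TPM and AT2G40350 at 0.991 TPM. At the mock limit of 8 reads stood 11 members, with AT1G56710, AT5G40620 and AT2G25482 the highest. With 9 mock reads, FKBP15-3 at 52.2 TPM, AT2 (AT5G55370) at 24.1 TPM and AT2G24195 at 11.1 TPM stayed outside. The smallest step was that of AT3G13857, with 2, 1 and 5 reads in mock and 7, 4 and 7 at 24 h, 2.45-fold with a 95% exact interval from 1.015 to 6.52.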

How the data were processed

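Per the study's methods, the authors trimmed paired reads of a stranded mRNA library, mapped them to TAIR10 in CLC Genomics Workbench and deposited total and unique exon read counts, TPM and RPKM per gene for each library. Their use of strand in counting is not stated. Rows without exon length (5178 of 32833) were left out of shares. Positions and products came from TAIR10.1 (32548 genes matched, all 238 members).

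The members and lists were chosen with earlier results of these data known. Deposited total counts were tested with edgeR 4.0.16 (TMM, filterByExpr, quasi-likelihood F-test, all 9 libraries in 1 fit) in R 4.3.3, adjusted by Benjamini-Hochberg over 20272 genes and called at 0.01 and 1.5-fold, the study's limits. SEs are the log2 change divided by the root of F. Alternatives used DESeq2 1.42.0, limma 3.58.1 on voom or log2(RPKM + 1 or 0.1), other scalings, filters, unique reads and a replicate block. The fit was tested on simulated counts, with changes set only in genes above a mean of 1 CPM. That setting does not cover the near-zero mock and 6 h counts of the members.

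Genes were named from the 25 highest at 24 h, the 8 highest at 6 h, the 5 with the largest called change from 6 h to 24 h, up to 3 per class, the 3 longest runs and the 3 on each side of a limit. Further genes (members called at 6 h, the AT3G01324 to AT3G01331 cluster, AT5G15030, AT1G27490, AT3G13857, AT5G16500, KRS, BG4, PME50, AT3G14040, SBT4.5, YAB1, WOX3, WOX7, ATG18E, CDR1, SULTR1;3, WIN1, BSMT1, FOX3, RALFL19 and those with no unique reads) were chosen after their values were seen.

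Deviations from the group means correlated at 0.214, 0.335 and 0.152 between same-numbered libraries of 6 h and 24 h. Between those of mock and 6 h the values were 0.146, -0.032 and -0.051. A pair of unlike numbers, mock replicate 3 and 6 h replicate 2, reached 0.186, and whether same-numbered libraries belong together was not tested.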

Additional observations from a re-analysis of the deposited data

How the results depend on the processing

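The count of 238 members followed the limits of the rule. It was 128 with a limit of 2 TPM, 381 with 0.5 TPM and 140 with 1 RPKM, and between 173 and 343 under the other limits tried on names, mock reads and single libraries. Leaving out a mock library with the limit of 8 reads kept gave 276 to 293 genes, and leaving out a library of 24 h gave 222 to 252. The 13 members called higher at 6 h became 6 with limma on log2(RPKM + 1) and 20 with log2(RPKM + 0.1). At an adjusted p under 0.05 without a fold limit the count was 24. Each of these settings tested 188 members. Of all 20272 genes tested, 1100 were called higher in the main fit. The same alternatives called 789, 1004 and 3623 of them higher, in this order. The cause of the spread between limma fits was not tested. Without single libraries the count of members was 9 to 15, where 879 to 1146 of all tested genes were called higher. With the 2 groups alone it was 10, the only members that passed that filter, where 1122 of 19795 genes were called higher. The 185 members called higher at 24 h against 6 h became 108 when 1 CPM in 3 libraries was required, a filter that left 109 members in the test, and 182 to 212 without single libraries. Over all genes, 2647 of 19084 were called higher under that filter and 2494 to 3243 without single libraries. No alternative called a member lower. A set of 18 single changes was examined under the count and voom fits. It held the 13 changes of 6 h against mock and the largest called changes of 24 h against 6 h. The latter, of AT4G19760, LCAT1, AT4G19750, STP2 and AT1G44010, were picked for size, and 24 h values also chose the members. Their calls were thus favoured in every fit, and nothing is read from them. Of all 18 changes, 14 were called in each fit that tested them and none changed sign. The log2(RPKM + 1) fit, which called 6 of the 13, is not among these. Among the 13 changes of 6 h against mock, those of AT5G37840, AT1G63057, AT5G53680 and AT5G16500 lost their calls in fits with a library left out. With the replicate block, 16 members were called higher at 6 h, all 13 among them, and 185 at 24 h against 6 h, where AT4G16820 lost and ATMYB102 gained a call. Over all 20272 genes, 1183 and 2884 were called higher with the block. Mock counts of 0 to 8 reads limit every fold against mock to its counting interval or a lower bound.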
